A study of Gallus gallus with 6 samples.

Results

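Chemokine receptors and ligands were followed in chicken blood leukocytes through 5 listed genes: the receptors CXCR4, CCR6 and CCR7 and the ligands CCL4 and CCL20. A probe belonged to a gene when its RefSeq accession mapped to that symbol in a RefSeq gene table. By this rule 4 of the 5 genes had a probe, and they held 7 of the array's 43603 probes. CXCR4 and CCR7 had 1 probe each, CCL20 had 2 and CCL4 had 3. No probe mapped to CCR6, the receptor for CCL20, so CCR6 was not measured here. All 7 probes were well above background in all 6 libraries.

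The study held 3 samples labelled female and 3 labelled male from chickens 1 to 2 months old, with 1 single-colour array each. The cells were recovered from the interface of a density gradient. The series title speaks of transgenic and non-transgenic chickens, but the labels of these 6 samples name no transgene, strain or treatment, and do not say whether each sample is a separate bird. All p-values below therefore reflect only how far these 6 samples spread, which may be technical. The stated question was how expression differs between the sexes.

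Chemokines are small secreted proteins that steer the migration of leukocytes through G-protein coupled receptors. CXCR4, the receptor for CXCL12, holds blood cells in the bone marrow and guides lymphocytes. CCR7 brings naive T cells and mature dendritic cells to lymphoid tissue. CCL4 and CCL20 are inducible inflammatory ligands. In mammals CCL20 attracts lymphocytes and dendritic cells through CCR6.

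The libraries labelled female 3 and male 3 went against their labels. HINTW, a W-linked gene that only females carry, read 6.61, 6.47 and 4.65 across female-labelled libraries 1 to 3 and 4.58, 4.48 and 6.99 across male-labelled libraries 1 to 3. Every value on this scale is the log2 signal of 1 probe relative to the 75th percentile of its array. On the other 7 HINTW probes the libraries spanned 7.72 to 14.6 log2, against 2.51 log2 on the probe shown, which had the highest mean. The libraries labelled female 1, female 2 and male 3 were the 3 highest on each probe. In those 3 libraries HINTW probe A_87_P060561 was brighter than the probe shown, at 7.16, 7.14 and 7.56. Directions below are between the labels as deposited, and differences without the pair labelled female 3 and male 3 are given with them. The female-labelled arrays shared 1 slide and the male-labelled arrays another, so a slide effect and a label effect cannot be told apart. Lymphocyte markers were bright in every library: CD3D, a subunit of the T cell receptor complex, read 7.53 to 8.11, and CD79B, a subunit of the B cell receptor, 5.39 to 6.24. All 14 measured heterophil genes were also well above background in all 6 libraries, and their mean level ranged between -1.85 log2 around its own mean (library labelled male 2) and 1.77 (library labelled female 3). Heterophils are a type of granulocyte in birds. Of all spots, 79.0% to 83.1% per array were well above background.

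CXCR4 gave a processed intensity of 1259 to 1982 units and was modestly lower in each library labelled male than in each labelled female. It read 0.95, 1.01 and 1.18 across female-labelled libraries 1 to 3 and 0.73, 0.47 and 0.90 across male-labelled libraries 1 to 3. The label groups did not overlap, but only 0.050 log2 separated the library labelled male 3 from that labelled female 1. Group means were 1.05 ± 0.12 and 0.70 ± 0.21 (SD, n = 3 each). The male minus female difference was -0.35 log2 (SE 0.16, 95% confidence interval -0.73 to 0.04) and did not pass limma's test over 29509 features (adjusted p = 0.948, threshold 0.05). Non-overlapping groups with the male label lower were seen for 4.16% of all features. With array-median scaling the CXCR4 groups overlapped. Without the pair labelled female 3 and male 3 the difference was -0.38 log2 (limma adjusted p = 0.253).

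CCR7 gave a processed intensity of 119 to 222 units and showed the same order of groups. It read -2.13, -2.26 and -2.64 across female-labelled libraries 1 to 3 and -2.65, -2.93 and -2.78 across male-labelled libraries 1 to 3. The libraries labelled female 3 and male 1 were almost level, 0.0083 log2 apart. Means were -2.34 ± 0.27 and -2.79 ± 0.14 (SD, n = 3 each). The difference was -0.45 log2 (SE 0.18, 95% confidence interval -0.88 to -0.01), with an unadjusted limma p of 0.045 and an adjusted p of 0.948. An unadjusted p under 0.05 was reached by 3.81% of all features. The CCR7 groups overlapped with array-median scaling. Without the pair labelled female 3 and male 3 the difference was -0.59 log2 (limma adjusted p = 0.171).

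CCL4 varied far more between libraries than between labels, from 363 to 4118 units of processed intensity on its brightest probe. Its brightest probe, A_87_P008714, read -0.50, 2.07 and -1.27 across female-labelled libraries 1 to 3 and 0.69, 0.28 and -0.97 across male-labelled libraries 1 to 3. The library labelled female 2 was the highest of all 6, as it was for 17.1% of all features, and the highest and lowest libraries of the group labelled female enclosed every library labelled male. The range of 3.33 log2, or 10.1-fold, was exceeded by 1.54% of features.

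The other CCL4 probes gave the same 3 highest libraries, those labelled female 2, male 1 and male 2, in that order. A_87_P066036 read -3.35, 0.74 and -3.30 across female-labelled libraries 1 to 3 and -0.91, -0.95 and -4.32 across male-labelled libraries 1 to 3, a 33.4-fold range. A_87_P066046 read -4.96, -2.15 and -4.86, and -3.51, -3.71 and -5.27. The probes disagreed on the lowest library, which was that labelled female 3 on the brightest probe and that labelled male 3 on the other 2. Between labels the brightest probe differed by -0.10 log2 (SE 0.91, 95% confidence interval -2.29 to 2.09, limma adjusted p = 0.989). The difference became 0.88 log2 without the library labelled female 2 and 0.38 without that labelled male 3; without both libraries numbered 3 it was -0.30.

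CCL20 was highest in the library labelled female 1 and lowest in that labelled female 3, with 93.5 to 509 units of processed intensity on its brighter probe. Its brighter probe, A_87_P139318, read -0.93, -1.92 and -3.22 across female-labelled libraries 1 to 3 and -2.60, -2.82 and -1.88 across male-labelled libraries 1 to 3. The second probe, A_87_P038098, read -1.69, -2.61 and -4.05, and -3.43, -3.74 and -2.57. Both probes put the 6 libraries in the same order, and their ranges were 4.90-fold and 5.12-fold. The group labelled female again enclosed all 3 libraries labelled male. The male minus female difference was -0.41 log2 (SE 0.59, 95% confidence interval -1.83 to 1.01, limma adjusted p = 0.948). It was 0.14 log2 without the library labelled female 1 and -1.28 log2 without the pair labelled female 3 and male 3 (limma adjusted p = 0.186).

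**Figure D1:**
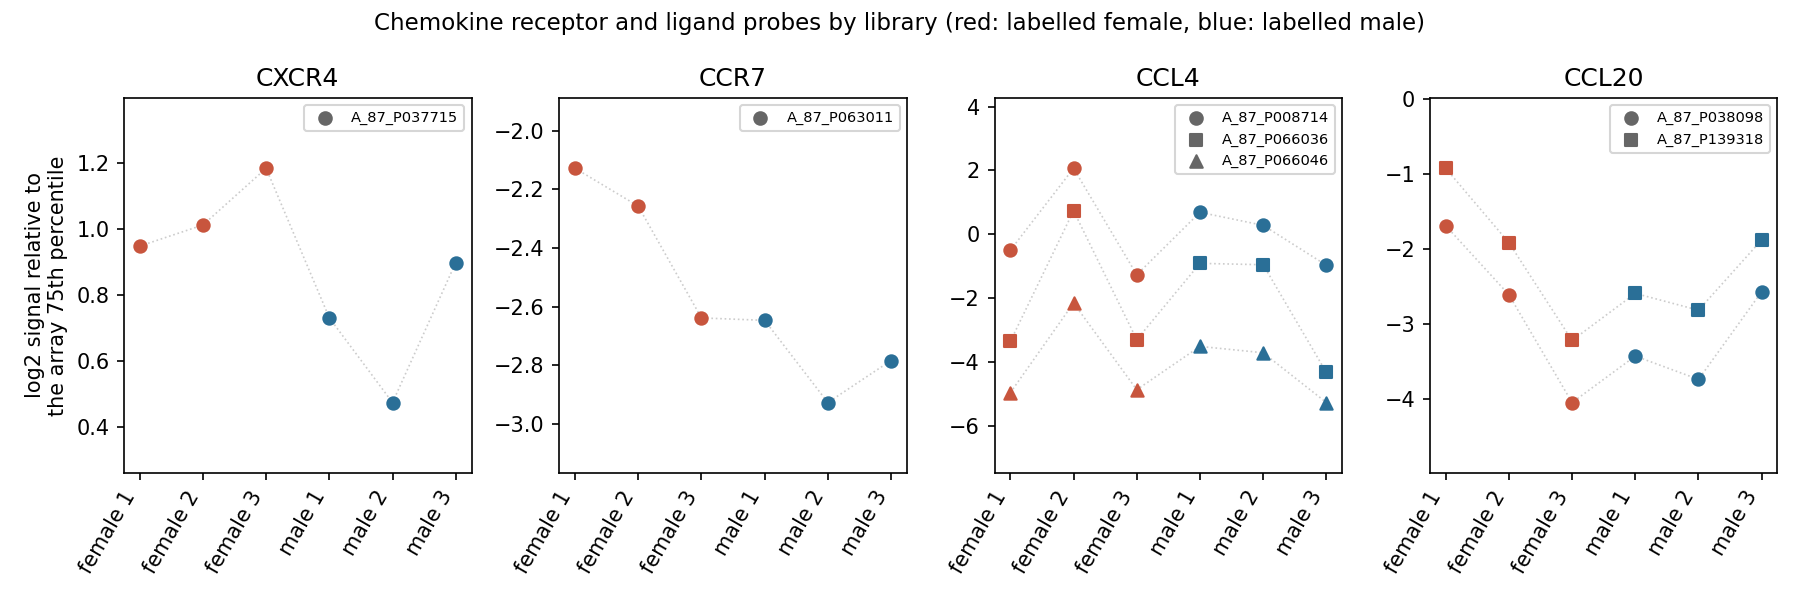
Log2 signal relative to each array's 75th percentile (vertical axis, with its own scale per gene) for every probe of CXCR4, CCR7, CCL4 and CCL20 in the 6 libraries (horizontal axis; red labelled female, blue labelled male). Each marker shape is 1 probe and dotted lines join the values of a probe. CXCR4 and CCR7 were lower in the libraries labelled male by small margins, while CCL4 peaked in the library labelled female 2 and CCL20 in that labelled female 1.

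The 3 highest CCL20 libraries, labelled female 1, male 3 and female 2, were also the 3 with the highest HINTW. As a description of order, with no test, the same 3 libraries were the highest for 14.1% of all features and for 4 of the 22 chemokine genes tested (18.2%), namely CCL20, CCR8, CXCR7 and LOC395551. Those counts use 1 probe a gene: a second LOC395551 probe and CXCR7 probe A_87_P017770 did not show that order. Neither did CXCR4, CCR7 or CCL4.

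A separate gene on chromosome 19, LOC395551, carries CCL4 and MIP-1beta among its synonyms in the gene table, while the gene with the symbol CCL4 carries the synonym K203. The LOC395551 levels followed another order than those of CCL4. It read 2.64, 2.61 and 1.69 across female-labelled libraries 1 to 3 and 2.50, 2.50 and 3.69 across male-labelled libraries 1 to 3, on the brighter of its 2 probes. It was highest in the library labelled male 3, where CCL4 was next to lowest on its brightest probe and lowest on its other 2. It differed by, male minus female, 0.59 log2 (SE 0.42, limma adjusted p = 0.948), and -0.13 log2 without the pair labelled female 3 and male 3. CCLL4, a further chemokine-like gene named after its values were seen, read -2.54, -1.99 and -3.83 across female-labelled libraries 1 to 3 and -2.54, -1.85 and -3.56 across male-labelled libraries 1 to 3. Like CCL4 on its brightest probe, it was lowest in the libraries labelled female 3 and male 3. Related chemokine genes can share probe sequence, and cross-hybridisation was not tested.

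Of 23 chemokine receptor and ligand genes with a probe, 22 were tested, and none passed between the labels (limma adjusted p 0.948 to 0.996). Over all features 0.00% passed. The unadjusted p was under 0.05 for 3 of the 22, namely CCR7, CXCR1 and CCL5, which is 13.6% against 3.81% of all features. That count depended on the setting. It was 0 receptors and 1 ligand with array-median scaling, and 1 of each with quantile normalization. With the replicate number as a block it was 1 receptor and 3 ligands. Without the library labelled female 1 it was 0 of each, and without that labelled male 2 it was 0 receptors and 3 ligands. It was 2 of each without the pair labelled female 3 and male 3. The share of all features was not counted under these settings. Label groups did not overlap, with the male label lower, for CXCR4 and CCR7, which is 9.09% of the 22 against 4.16% of all features. They did not overlap with the male label higher for CCL5, which is 4.55% of the 22 against 3.84%. Without the pair labelled female 3 and male 3 none of the 22 passed, while 0.288% of all features did.

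Among the 10 receptors, 6 had a lower and 4 a higher mean in the libraries labelled male, with a median difference of -0.16 log2 against -0.01 log2 over all features. A lower mean with the male label was seen for 52.6% of all features. The receptors' median was 0.06 log2 without the library labelled male 2, -0.31 without that labelled male 3 and -0.37 without the pair labelled female 3 and male 3. CXCR1, a receptor for interleukin-8-type ligands, was at -0.52 log2 (SE 0.20), or -0.37 without the pair labelled female 3 and male 3, and read -5.13, -5.44 and -4.99 across female-labelled libraries 1 to 3 and -5.38, -5.92 and -5.80 across male-labelled libraries 1 to 3. It was dim, at 14.9 to 27.8 units of processed intensity, though well above background in all 6 libraries. With normexp background correction the lowest receptor difference was that of CXCR4, at -0.34 log2. CCR9, known for homing of T cells to the gut and thymus, was at 1.01 log2 (SE 0.44), close to background, and was well above it in 5 of the 6 libraries. CCR9 was the nearest of these genes to the threshold without the pair labelled female 3 and male 3, at 1.76 log2 (limma adjusted p = 0.061).

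CCR2, a receptor of monocytes in mammals, read -2.25, -2.48 and -1.28 across female-labelled libraries 1 to 3 and -2.16, -1.71 and -1.61 across male-labelled libraries 1 to 3. It was highest in the library labelled female 3 and lowest in that labelled female 2, and differed by 0.18 log2 (SE 0.34), or 0.43 without the pair labelled female 3 and male 3. CCR8 was at -0.01 log2 on its brightest probe and at -0.72 log2 on its dimmest, so its 3 probes disagreed. CXCR7, which takes up CXCL12, was at 0.03, the XCL1 receptor XCR1 at -0.45 and the chemerin receptor CMKLR1 at -0.32. The 95% confidence intervals of these 5 genes included 0. Without the pair labelled female 3 and male 3, CCR8 was at -0.39, CXCR7 at -0.37, XCR1 at -0.63 and CMKLR1 at -0.46 log2. CXCR7 thus changed sign on its brightest probe. Over all libraries its probes already lay on both sides of 0 (0.03, -0.04 and 0.11).

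Among the 12 tested ligands, 8 had a higher and 4 a lower mean in the libraries labelled male, with a median difference of 0.33 log2 against -0.01 log2 over all features. A higher mean with the male label was seen for 47.4% of all features. That median was 0.07 log2 without the library labelled male 1, 0.15 without that labelled female 1 and 0.16 without the pair labelled female 3 and male 3. IL8L1 and IL8L2 are the chicken counterparts of interleukin-8. IL8L2 read 0.47, -1.15 and 0.59 across female-labelled libraries 1 to 3 and 1.37, -0.35 and 1.51 across male-labelled libraries 1 to 3. IL8L1 read -1.78, -2.99 and -2.76, and -0.89, -3.10 and -0.98. Both were highest in the libraries labelled male 1 and male 3, and their differences were 0.87 log2 for IL8L2 (SE 0.66) and 0.85 log2 for IL8L1 (SE 0.66). Without the pair labelled female 3 and male 3 these were 0.85 and 0.39 log2. CCL4 did not follow them: it was highest in the library labelled female 2, where IL8L2 was lowest.

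LOC417536, listed with the synonym CCLi9, differed by 0.46 log2 (SE 0.88), or 1.48 without that pair of libraries, and spanned 3.36 log2, between -2.76 for the library labelled female 2 and 0.60 for that labelled female 3. Its extremes were thus the reverse of those of CCL4 on its brightest probe. XCL1, a ligand made by activated lymphocytes, ranged from -0.75 to 1.24 and differed by 0.68 log2 (SE 0.42), or 0.76 without the pair. CCL5, a ligand made by T cells and cytotoxic cells, had the largest difference of the 22, 1.97 log2 (SE 0.72, 95% confidence interval 0.23 to 3.72, limma adjusted p = 0.948), or 2.93 without the pair (limma adjusted p = 0.154). It read -4.17, -2.84 and -2.27 across female-labelled libraries 1 to 3 and -1.31, 0.16 and -2.21 across male-labelled libraries 1 to 3. The cytotoxic cell list was likewise highest in the library labelled male 2 (1.63 log2) and lowest in that labelled female 1 (-1.13). With 1 probe a gene CCL5 also had the widest range of the 22, 4.33 log2, but CCL4 probe A_87_P066036 spanned 5.06 log2. CCL1 and CXCL14 varied least, by 0.28 and 0.31 log2, and CCL17 lay near background at -6.65 to -5.22. The differences of CCL1, CXCL14 and CCL17 were 0.02, -0.07 and 0.19 log2, and without the pair 0.09, -0.12 and 0.22.

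CXCL12, the CXCR4 ligand, read -1.87, -0.57 and -0.05 across female-labelled libraries 1 to 3 and -1.60, -1.58 and -0.19 across male-labelled libraries 1 to 3 on 1 probe. The difference was -0.30 log2 (SE 0.58), or -0.37 without the pair. Its second probe was not well above background in any library, so the probes disagreed on detection. The same was true of CXCL14. None of the 3 CX3CL1 probes was well above background in any library, and it was not tested.

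**Figure D2:**
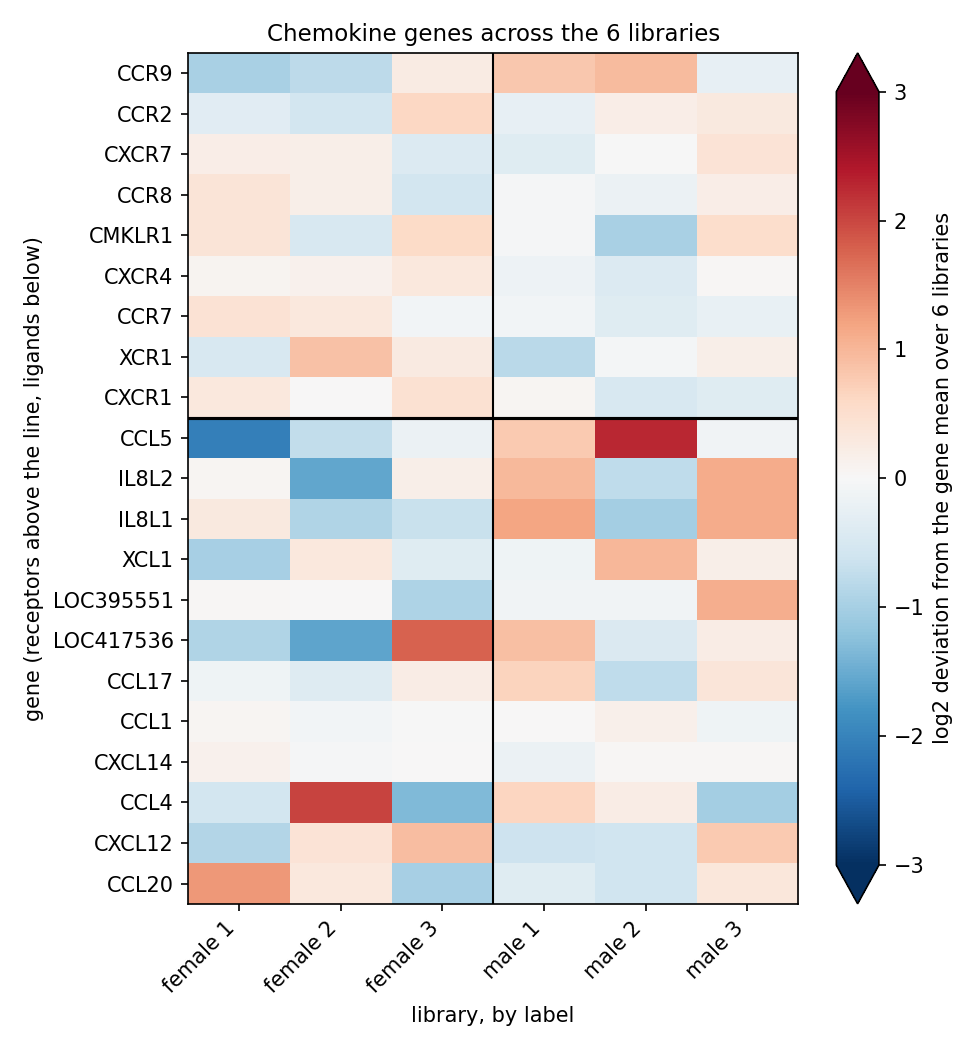
Log2 deviation of each of 21 tested chemokine genes from its own mean over the 6 libraries (colour; rows are genes, receptors above the line and ligands below; columns are libraries, labelled female left of the line and male right of it). CCL4 was highest in the library labelled female 2, CCL20 in that labelled female 1 and CCL5 in that labelled male 2.

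**Figure D3:**
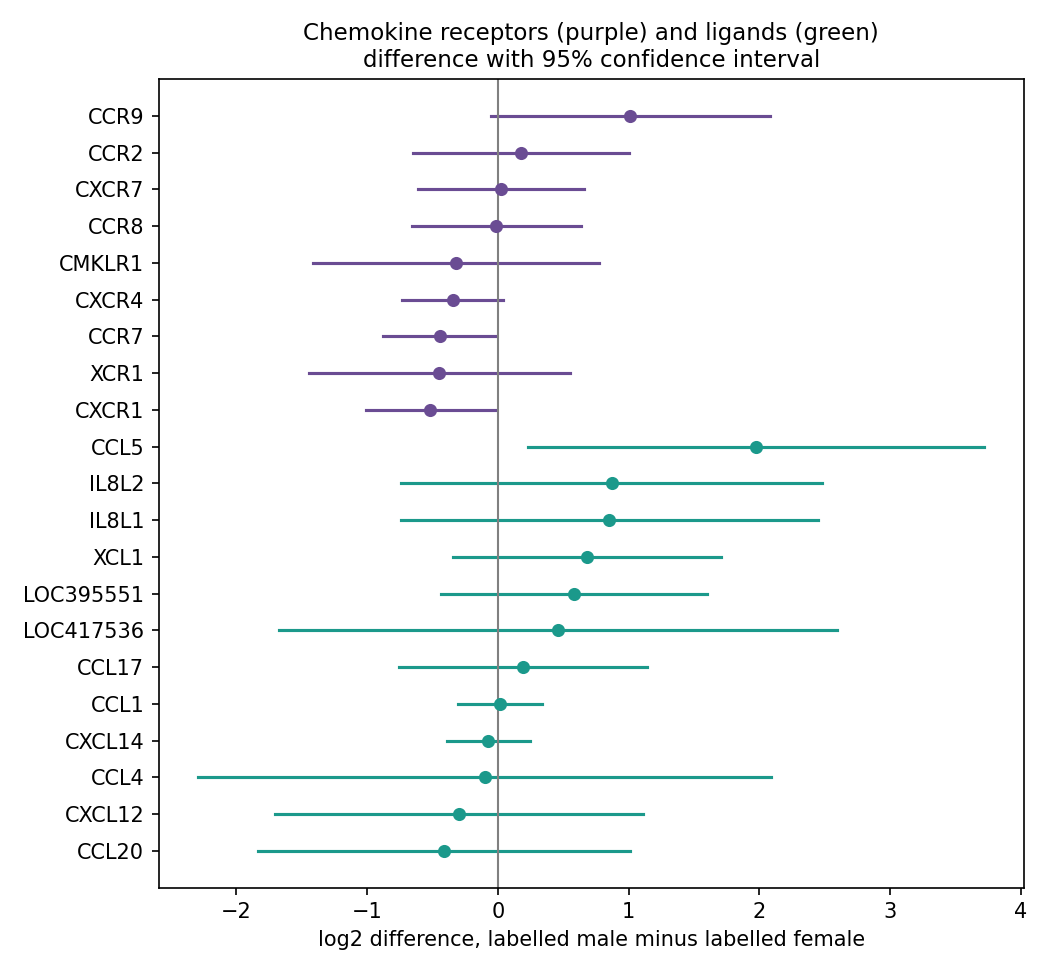
Male minus female log2 difference (horizontal axis; points) with its 95% confidence interval from limma (lines) for 9 chemokine receptors (purple) and 12 ligands (green). CCL4 and LOC417536 had the widest intervals, and no gene passed after adjustment over 29509 features.

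Genes of the signalling and migration machinery that acts downstream of chemokine receptors were also counted. Of 14 measured, 7 were higher and 7 lower in the mean of the libraries labelled male, with a median difference of 0.01 log2, and none passed (limma adjusted p 0.948 to 0.991). The 4 with the smallest p were GNAI1 at -0.36 (SE 0.16), RAC1 at 0.21 (SE 0.13), ITGB2 at 0.26 (SE 0.19) and GNG2 at 0.23 log2 (SE 0.20). Without the pair labelled female 3 and male 3 these were -0.39, 0.32, 0.39 and 0.39 log2, and the median of the 14 was 0.04. GNAI1 encodes an inhibitory G-protein alpha subunit, GNG2 a gamma subunit, RAC1 a GTPase of cell movement and ITGB2 the beta chain of leukocyte integrins.

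The members were next set against marker lists for leukocyte classes, since RNA of mixed cells can change with the makeup of the sample. Fewer cells of a type and less RNA per cell cannot be told apart in such samples. Each of the 4 measured members was correlated over the 6 libraries with the mean level of 8 lists, 32 relations in all. None passed Benjamini-Hochberg adjustment (exact permutation over all pairings of libraries, two-sided, lowest adjusted p = 0.289 for Pearson's r and 0.559 for Spearman's rho). For Spearman's rho the smallest possible exact permutation p was 0.0028, so 1 relation alone could not pass over 32. For Pearson's r, 1 relation alone could pass only if the observed pairing was the most extreme of all 720. Each slide held 3 libraries, too few for a value within a slide, so r with the label means subtracted is given instead. The strongest relation of each member by Pearson's r over all 6 libraries follows, which was thus picked from 8. Another list could be the strongest by Spearman's rho or with libraries left out. Single markers named are the extremes of their list, so the count of the list's genes in each direction is given with them. The part of cell makeup in the member differences was not tested.

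CCL4 had its strongest relation, a negative one, with monocyte and macrophage markers. Over 6 libraries Pearson's r was -0.92 (exact permutation p = 0.014, adjusted p = 0.289) and Spearman's rho was -0.83 (exact permutation p = 0.058, adjusted p = 0.559). Without the 2 libraries farthest from the median marker level r was -0.64, and with label means subtracted it was -0.93. It was -0.83 without the pair labelled female 3 and male 3. With the heterophil list CCL4 had r = -0.76 and the same Spearman's rho, -0.83, and all 14 genes had a negative r. That r was -0.90 without the 2 libraries farthest from the median heterophil level. It was -0.35 without the pair labelled female 3 and male 3. The monocyte list's 13 genes averaged -0.44 log2 around their own means in the library labelled female 2, where CCL4 was highest, and 0.38 in that labelled female 3, where it was lowest. Of single markers, CD14, a co-receptor for bacterial lipopolysaccharide, had r = -0.80 with CCL4, and the myeloid receptor TREM2 had r = -0.79. CD14 was dim, at -6.26 to -5.14, though well above background in all 6 libraries. Of the 13 genes, 11 had a negative and 2 a positive r, up to 0.39 for the scavenger receptor CD36. TREM2 read -3.83, -4.03 and -2.32 across female-labelled libraries 1 to 3 and -3.56, -3.75 and -2.62 across male-labelled libraries 1 to 3. Both libraries numbered 3 were the highest for TREM2 and the lowest for CCL4 on its brightest probe.

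By Pearson's r the strongest relation of CCL20 was with B cell markers and was negative. Pearson's r was -0.88 (exact permutation p = 0.018, adjusted p = 0.289) and Spearman's rho -0.71 (exact permutation p = 0.136, adjusted p = 0.559). Pearson's r was -0.90 without the 2 libraries farthest from the median marker level, -0.92 with label means subtracted and -0.97 without the pair labelled female 3 and male 3. It was -0.68 without the library labelled female 1. The 13 genes averaged -0.33 log2 in the library labelled female 1, where CCL20 was highest, and -0.03 to 0.17 in the others. CD79B, with r = -0.92, read 5.39, 5.80 and 6.24 across female-labelled libraries 1 to 3 and 6.05, 6.24 and 6.07 across male-labelled libraries 1 to 3. CD72, a B cell surface receptor whose gene lies on chromosome Z, had r = -0.90. It was lowest in the libraries labelled female 1 (0.72), male 3 (1.43) and female 2 (1.51), those with the highest HINTW. The part of sex linkage in this r was not tested. Of the 13 genes, 9 had a negative and 4 a positive r, up to 0.72 for SH2D6, which entered the list through its synonym BLNK.

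T cell markers as a list gave a weaker relation with CCL20 (r = -0.56), and its genes were split, 7 with a negative and 7 with a positive r. The extremes were CD3D at -0.99 and the transcription factor GATA3 at 0.73. CD3D read 7.53, 7.82 and 8.11 across female-labelled libraries 1 to 3 and 7.96, 8.08 and 7.73 across male-labelled libraries 1 to 3. The order of the libraries by CD3D was the exact reverse of that by CCL20. Over the same libraries the immediate early and inflammatory genes had r = 0.70 with CCL20, and the erythroid genes r = 0.67. The inflammatory r was 0.54 without the 2 libraries farthest from the median level of that list. It was 0.49 without the pair labelled female 3 and male 3. By rank the erythroid list was the strongest of the 8, with Spearman's rho 0.89 (exact permutation p = 0.033, adjusted p = 0.559). Its r was 0.96 without the 2 libraries farthest from the median erythroid level. Without the pair labelled female 3 and male 3 it was 0.76. ALAS1 entered the erythroid list through its synonym ALAS2.

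CXCR4 had its strongest relation by Pearson's r with cytotoxic cell markers. Pearson's r was -0.77 (exact permutation p = 0.079, adjusted p = 0.462) and Spearman's rho -0.54 (exact permutation p = 0.297, adjusted p = 0.559). Without the 2 libraries farthest from the median marker level r was -0.49, and with label means subtracted it was -0.63. It was -0.90 without the pair labelled female 3 and male 3, but -0.34 without the library labelled male 2. The list's 5 genes averaged 1.63 log2 in the library labelled male 2, where CXCR4 was lowest. FASLG, the ligand of the death receptor Fas, had r = -0.95 and granulysin (GNLY) r = -0.79; all 5 genes had a negative r, the weakest -0.36 for IFNG. The T cell list had r = 0.51 with CXCR4 and the heterophil list r = 0.69. Both had Spearman's rho 0.60, larger in size than that of the cytotoxic list. The heterophil r became -0.26 without the 2 libraries farthest from the median heterophil level. The erythroid r was 0.93 without the pair labelled female 3 and male 3. It was -0.42 without the 2 libraries farthest from the median erythroid level.

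CCR7 had its strongest relation with B cell markers, also negative. Pearson's r was -0.77 (exact permutation p = 0.051, adjusted p = 0.462) and Spearman's rho -0.71 (exact permutation p = 0.136, adjusted p = 0.559). Without the 2 libraries farthest from the median marker level r was -0.72, and with label means subtracted it was -0.64. It was -0.81 without the pair labelled female 3 and male 3, but -0.47 without the library labelled female 1. The cytotoxic list had r = -0.67 with CCR7, with all 5 genes negative, and the erythroid list r = 0.46. Without that pair these were -0.98 and 0.91, both stronger than the B cell value. Without the 2 libraries farthest from each list's median level they were 0.15 and 0.88. PAX5, the transcription factor of B cell identity, and the coactivator POU2AF1 each had r = -0.92. PAX5 also lies on chromosome Z. Of the 13 genes, 10 had a negative and 3 a positive r, up to 0.74 for SH2D6. With the T cell list CCR7 had r = -0.04.

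**Figure D4:**
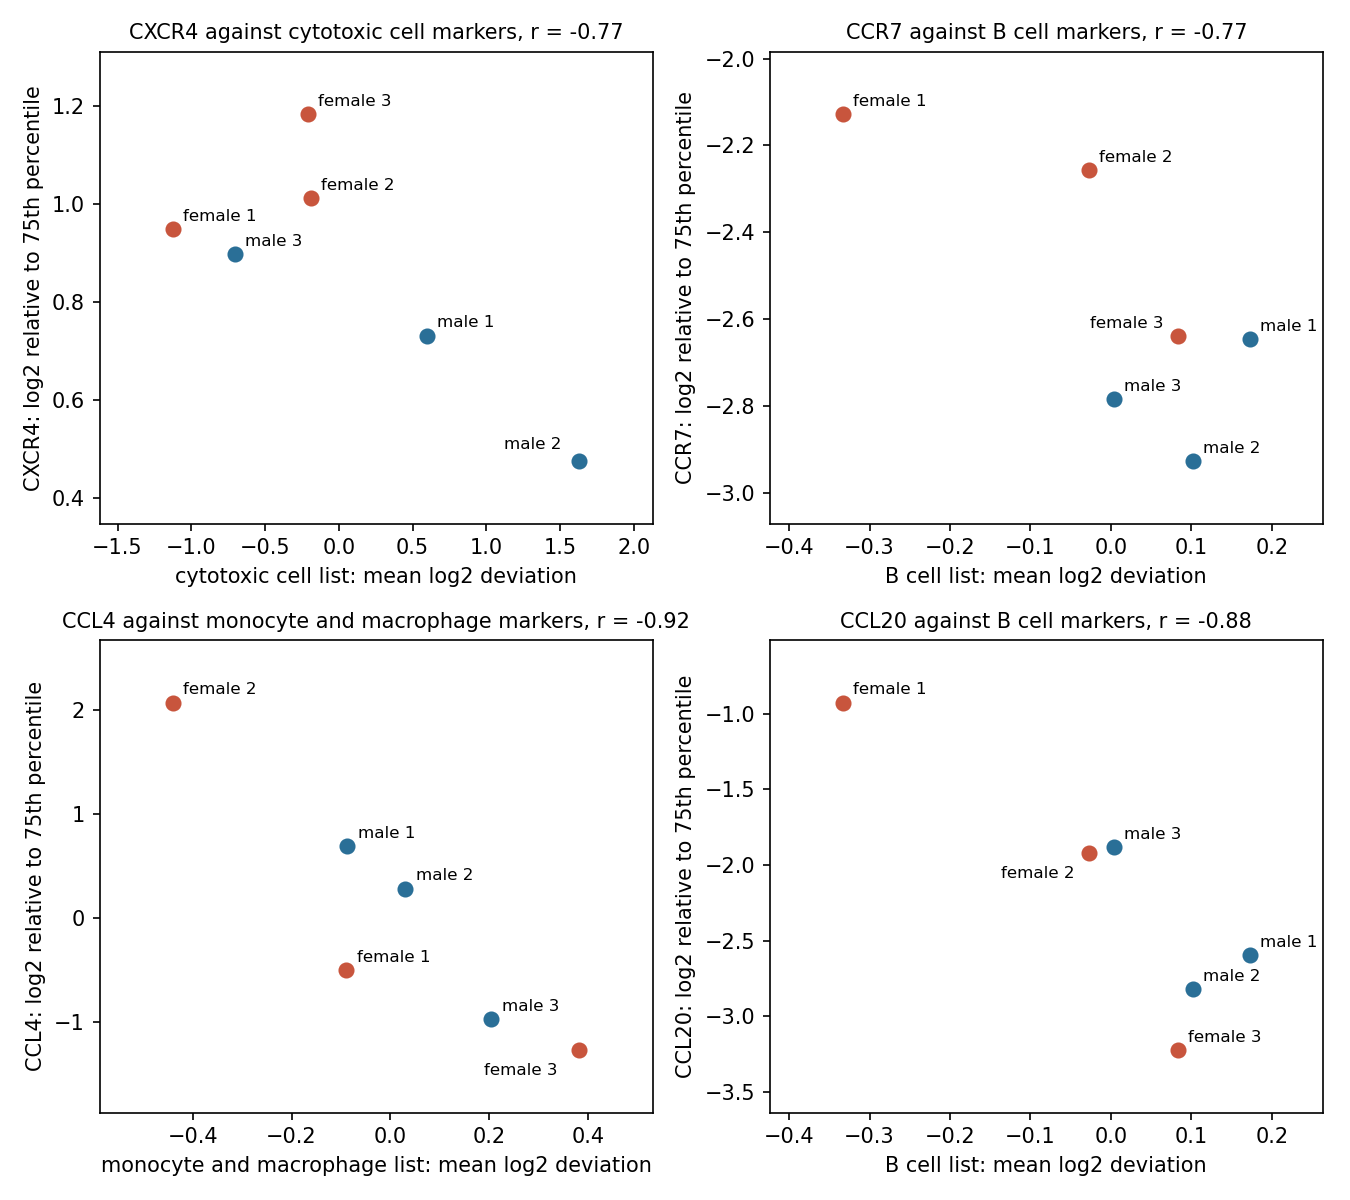
Level of each member on its brightest probe (vertical axes, log2 over the array's 75th percentile) against the mean log2 deviation of the marker list with the strongest correlation (horizontal axes) in the 6 libraries (red labelled female, blue labelled male). The 4 Pearson correlations, each the strongest of 8 lists, were -0.77, -0.77, -0.92 and -0.88. None passed adjustment over 32 relations.

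Single genes with a pattern like that of a member were taken from 1519 or 1520 named genes above background that varied between the libraries. The measure was Pearson's r of log2 values over the 6 libraries, given as a description. For CXCR4 these were NRXN3 (r = 0.99), RHAG, an erythroid membrane protein (0.98), PTH2R (0.98) and HSD17B11 (0.98). For CCR7 they were the junction protein JUP (0.98), FRZB (0.98), WNT11B (0.97) and PDDC1 (0.97). For CCL4 they were TIPIN (0.94), XIRP1 (0.92), CHST10 (0.91) and TOB1 (0.90). For CCL20 they were CABP2 (0.98), LUZP2 (0.98), LOC395991 (0.98) and the transcription factor ZEB1 (0.97). These correlations were picked as the highest of all genes searched and carry no test. RHAG read 3.59, 4.09 and 4.47 across female-labelled libraries 1 to 3 and 2.21, 1.37 and 3.50 across male-labelled libraries 1 to 3. The erythroid list as a whole had r = 0.51 with CXCR4, with 10 of its 13 genes positive and 3 negative. Its lowest was XK at -0.95, well above background in 4 of the 6 libraries. The part of erythroid RNA in the CXCR4 values was not tested.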

How the data were processed

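Cy3-labelled blood leukocyte RNA was measured on 6 single-colour chicken arrays. Per the file headers, the authors extracted spot intensity with version 11.5.1.1 of Agilent's Feature Extraction; the processed signal is background-subtracted and detrended within an array. The deposited matrix equals that intensity times 1 factor per array (2.10 to 2.31), linear and uncentred, with column medians of 286 to 318; the target of that scaling is unknown. Between 3 and 12 outlier spots per array were left out.

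Log2 processed signal minus the array's 75th percentile was used. Probes well above background on 3 or more arrays were kept (35141 of 43603), and the kept probe of highest mean stood for a gene. RefSeq accessions named 11935 probes of 5382 genes through a table of another build, so no coordinates are given. Label groups were compared, two-sided, by limma 3.58.1 (lmFit, eBayes) under R 4.3.3, with p-values adjusted by Benjamini-Hochberg across 29509 features. A list's level is the mean deviation of its genes from their own means. Correlations used all 720 pairings of 6 arrays. The fit was also run on simulated data with independent libraries, correct labels and no slide effect. That run cannot speak for slides or for libraries that go against their labels. The number of arrays limits the precision.

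The members and lists were chosen with earlier results of these data known. Named genes were the members, each tested chemokine gene, 4 signalling genes with the smallest p, up to 2 markers per described list and 4 genes per member most alike in pattern (SD of at least 0.3 log2). One gene that this rule takes enters the counts but is left unnamed and unplotted. Alternatives covered background correction, scaling, probe filters and summaries, test settings, a replicate block and left-out libraries. No sequences are printed, since none were among the files used here. Computation and plots used Python 3.11.15, pandas 2.3.3 and matplotlib 3.10.9.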

Additional observations from a re-analysis of the deposited data

How the results depend on the processing

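CXCR4 and CCR7 stayed lower in the libraries labelled male under all 17 alternatives, from -0.44 to -0.23 log2 and from -0.59 to -0.30 log2. Neither passed under any (limma). Most of these alternatives could not change the sign. With 1 probe a gene, the probe filters, the summaries and the test settings left the difference the same by construction. With groups that did not overlap, leaving out libraries could not reverse it. Under normexp, the other scalings and the deposited matrix, CXCR4 was at -0.37 to -0.30 and CCR7 at -0.46 to -0.30 log2. CCL4 and CCL20 depended on single libraries. Leaving out 1 library at a time moved CCL4 between -0.78 and 0.88 log2 and CCL20 between -1.01 and 0.14 log2; CCL4 changed sign without the library labelled female 2 (0.88) or male 3 (0.38), and CCL20 without that labelled female 1 (0.14). None of the 4 members passed under any alternative (lowest limma adjusted p = 0.171). The count of features past the threshold, 0, became 1 with quantile normalization, 85 without the pair labelled female 3 and male 3, and 0 to 2 with 1 library left out. No chemokine or signalling gene passed in the 16 alternatives counted for those lists. No relation with a marker list passed in the 14 alternatives tested. With Spearman's rho, or with 5 or 4 libraries, 1 relation alone could not pass, since too few pairings exist. The absence of passing relations was there largely fixed in advance. The 4 strongest correlations of the members kept their sign in all 15 alternatives, within -0.34 to -0.99. They were picked as the strongest of 8 lists on the same arrays that the alternatives reuse. A change of sign was thus unlikely from the start, and the kept sign says little about stability. With the replicate number as a replicate block the member differences were the same by construction and the features passing were 0. Deviations of same-numbered libraries from their label means correlated at 0.01, -0.11 and -0.21. The libraries labelled female 3 and male 3 each went against their label, so these values cannot settle whether the number pairs the samples. Normexp was run on median spot signals. Dim probes such as those of CCR9, CCL17, CXCR1, XCR1 and CD14 are limited by background.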
